A study of Mus musculus with 4 samples.

Results

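The histone genes of this dataset are the 84 genes, of 38457 mouse features counted, whose symbols mark them as members of the clustered histone families (Hist1h to Hist4h) or of the H1f, H2af and H3f families. They comprise 68 replication-dependent genes, 15 replacement genes and 1 antisense RNA (H3f3aos), which overlaps H3f3a on the other strand. The cells came from mouse pancreatic islets and were captured 1 by 1 in inDrop droplets, where barcoded primers mark the 3′ end of each messenger RNA before linear CEL-Seq amplification. The 4 libraries carry the genotype labels Sin3A mutant (2 libraries) and WT (2 libraries), which the design text calls biological replicates, and the number closing a title occurs once per genotype. The libraries ending in _2426 are called mutant A and WT A, those ending in _3165 mutant B and WT B. The allele, its driver, the age and sex of the mice, any pooling and the meaning of the title numbers were not stated in the labels.

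Histones package DNA into nucleosomes. The replication-dependent genes, most of them in clusters without introns, supply the bulk of histone protein in S phase, and their messenger RNAs normally end a few bases after a short stem-loop in place of a poly(A) tail. That stem-loop is bound by the stem-loop binding protein, encoded by Slbp. The replacement genes are transcribed through the cell cycle and in resting cells, carry poly(A) tails and encode variants with roles in repair, transcription and chromatin compaction. Methods that prime on poly(A) are known to capture the tailless messenger RNAs poorly.

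Kept for analysis were 6526 cells of 6948 barcodes, with 1144 in mutant A, 1207 in WT A, 2382 in mutant B and 1793 in WT B. Median depth ranged from 4448.5 to 9997 counts per cell, and pairs of libraries shared 12 to 42 barcodes. Cells were called cycling when at least 2 of their counts, after thinning to 2000 counts, fell on 10 proliferation markers, and non-cycling when none did. Beta-like cells came mostly from a different cluster in each library (cluster 5 in mutant A, 0 in WT A, 4 in mutant B and 20 in WT B), and alpha-like cells from cluster 8 in A and 13 in B, so that levels between libraries carry that separation. Beta-like cluster 2 held 104, 101, 139 and 24 cells of mutant A, WT A, mutant B and WT B, and beta-like cluster 17 held 0, 1, 4 and 85. Alpha-like cluster 11 held 12, 7, 35 and 31. Cell cycle genes such as Ccna2 were among the leading genes of these clusters. The share of cycling cells in them was not counted, so the state comparisons may in part be ones between clusters. Insulin transcripts made up 28.9% of non-cycling beta-like counts in mutant A, 15.3% in WT A, 4.22% in mutant B and 8.57% in WT B. Glucagon made up 10.4% to 19.0% of those of alpha-like cells. Sin3a stood at 54.1 counts per 1000000 counts (CPM) in mutant A, 27.5 in WT A, 21.3 in mutant B and 43.5 in WT B, over all kept cells. Within A the mutant label went with the higher level, within B with the lower. Tags from the 3′ end need not lie in the altered part of the gene, so this does not check the labels, and directions by genotype below are directions by label.

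The replication-dependent genes were unevenly seen by these tags. They held 26159 counts in kept cells, of which Hist1h1c, a linker histone gene, held 13229 (50.6%). Adding the H2B gene Hist1h2bc, with 5381 counts, brought the share to 71.1%, and the 10 most counted genes held 96.7%. The median replication-dependent gene had 6 counts in all, 12 of the 68 reached 100, and 11 had none, where a count of 0 allows up to 3 counts. The 15 replacement genes held 146691 counts, led by H3f3a with 54343 and H3f3b with 44298, the pair of genes for the H3 replacement variant, and 10 of them reached 100 counts.

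The sequences of the most counted genes show where their annotated transcripts end. The positions of the counted tags themselves were not available. The stem-loop was searched on the transcript strand as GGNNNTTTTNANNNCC with its outer 6 bases on each side able to pair, and the following transcripts, shown because they carry the main results, hold it. Capitals mark the match, and the transcripts are those of GENCODE M21 on GRCm38.
Hist1h1c: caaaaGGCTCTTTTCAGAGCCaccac
Hist1h2ap: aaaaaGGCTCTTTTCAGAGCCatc
Hist1h4i: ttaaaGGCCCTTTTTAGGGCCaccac
Hist3h2ba: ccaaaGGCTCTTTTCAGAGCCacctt
Hist4h4: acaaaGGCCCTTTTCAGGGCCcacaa
H2afx: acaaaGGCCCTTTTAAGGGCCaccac
The match occurred in 0.138% of all 58797 annotated protein-coding transcripts. In Hist1h2ap (chr13:21833026-21833507, minus strand, 1 exon) only 3 annotated bases follow it. The single exon of Hist1h1c (chr13:23738808-23740367, plus strand) continues for 840 bases past it, and that of H2afx (chr9:44334694-44336077, plus strand) for 822.

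Several of the longer transcripts end near a poly(A) signal, searched as AATAAA or ATTAAA in the last 50 bases. Shown here with the signal in capitals are those of Hist1h1c and H2afx, which run far past the stem-loop, and of Hist2h2be, whose annotated transcript (chr3:96221119-96223738, plus strand) holds no match to the stem-loop.
Hist1h1c: gtgtatgcttctAATAAAaagcgtttagtt
H2afx: tgggctaattttATTAAAggatcgtttggt
Hist2h2be: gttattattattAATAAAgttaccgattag
Of the 68 replication-dependent genes 17 had such a signal, and they held 73.1% of the replication-dependent counts. A signal was present in 50.21% of all protein-coding transcripts, so its presence alone sets no gene apart. The 22 genes annotated for at least 100 bases past the stem-loop held 69.1% of the counts, and 8 of them reached 100 counts. The 22 genes annotated to end within 100 bases of it held 4.55%, and only Hist1h2ap, with 944 counts, reached 100. The remaining 24, with no match in the annotated transcript, held 26.3%, nearly all of it in Hist1h2bc and Hist2h2be. The distance of 100 bases was chosen after the counts had been seen.

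**Figure D1:**
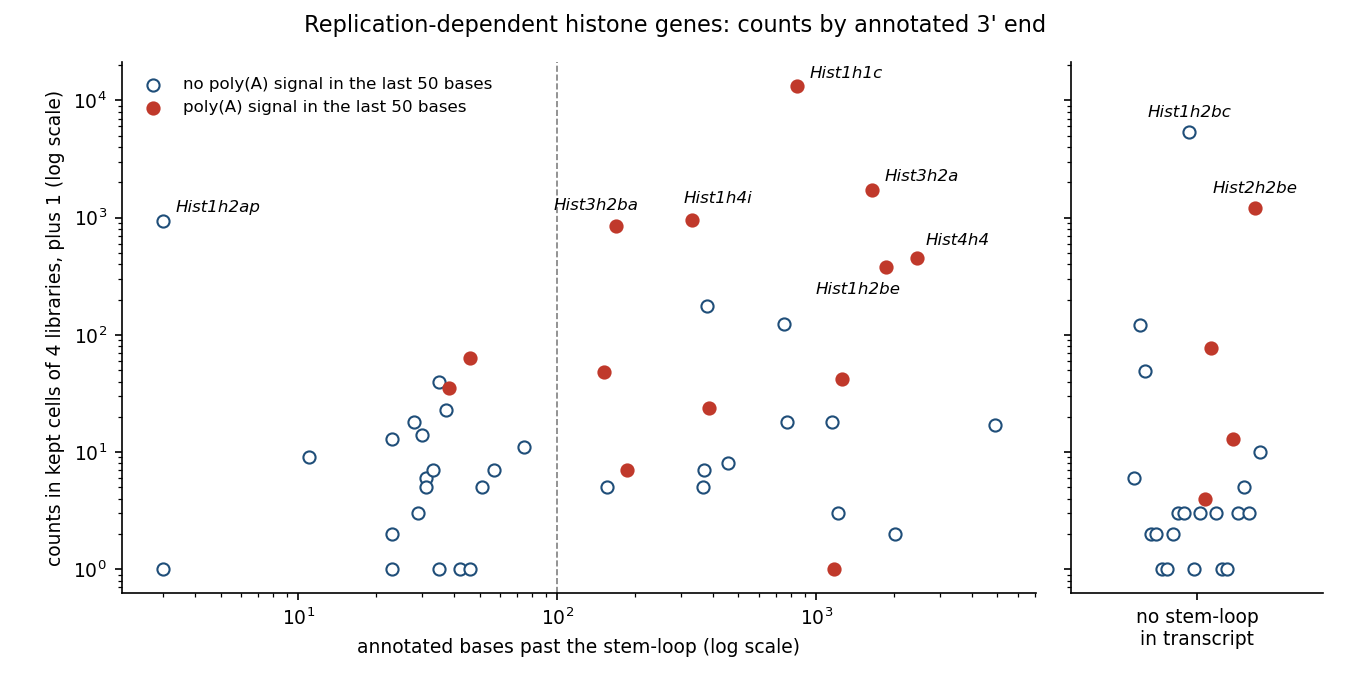
Counts of the 68 replication-dependent genes in kept cells of all 4 libraries, plus 1 (log axis), against the number of annotated bases past the stem-loop (log axis), with genes lacking a match in a strip at the right; filled red points have a poly(A) signal in the last 50 bases and the dashed line marks 100 bases. Hist1h1c, with 13229 counts, lies right of the line, and Hist1h2ap, with 944 counts, stands above all other genes left of it.

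Some of these counts cannot be tied to 1 gene. Every 31-base stretch of the last 200 bases of Hist1h2ap also occurs in Hist1h2ao, and 24 genes share some of it, so the values of Hist1h2ap are those of a group of near-identical H2A genes. Hist3h2a lies wholly within Trim17 on the same strand (2146 bases), and Hist1h2be overlaps Hist1h1e. In Hist1h2bc 15.9% of the last 200 bases is shared with other genes. H3f3a overlaps 2 genes on the opposite strand, and the labels do not state whether counting used the strand. Hist1h4h shared 46.5% of its end with other genes and Hist1h1b 3.53%.

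In beta-like cells, cycling cells had far more Hist1h2ap, more of 7 replacement genes, and less of the 2 most counted replication-dependent genes. The comparison set 90, 111, 172 and 109 cycling cells of mutant A, WT A, mutant B and WT B against 376, 358, 532 and 467 non-cycling cells, summed per library, with the library as a block. The proliferation genes Mki67 and Top2a differed by 5.56 and 5.16 on the log2 scale, a description only, since counts on such markers chose the cells. Of the 84 members 19 passed edgeR's filter on low counts. By edgeR's quasi-likelihood test with Benjamini-Hochberg adjustment over 12035 genes, 9 of them rose and 2 fell, where 10.9% of all genes tested were called higher and 8.45% lower. The median log2 difference was 0.05 over the 9 replication-dependent genes tested, 0.45 over the 10 replacement genes and -0.03 over all genes.

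Hist1h2ap encodes a core H2A and is the 1 gene annotated to end at the stem-loop that was tested here. In cycling beta-like cells it stood at 185 CPM in mutant A, 139.6 in WT A, 17.0 in mutant B and 5.20 in WT B. In non-cycling beta-like cells it stood at 12.6 CPM in mutant A, 5.60 in WT A, 0.548 in mutant B and 0.606 in WT B. It was higher in cycling cells in 4 of 4 libraries, and within each state both A libraries lay above both B libraries. The log2 difference was 4.17 ± 0.21 (SE; edgeR adjusted p = 4.6e-14). In B it rested on 23 cycling and 2 non-cycling counts in mutant B, and on 5 cycling and 2 non-cycling counts in WT B. Hist1h2ap passed the filter on low counts only with its cycling sums, where it is high, so its rise is a description.

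Of the other 8 replication-dependent genes tested, Hist2h2be rose, Hist1h1c and Hist1h2bc fell, and 5 did not pass the test. Hist1h1c stood at 490.1 CPM in mutant A, 155 in WT A, 101 in mutant B and 488 in WT B in cycling cells. In non-cycling cells it stood at 529 CPM in mutant A, 225 in WT A, 219 in mutant B and 622 in WT B. Hist1h1c was lower in cycling cells in 4 of 4 libraries, by -0.50 ± 0.10 on the log2 scale (edgeR adjusted p = 0.000437), and the per-library log2 ratios ranged from -1.11 in mutant B to -0.11 in mutant A. The levels of the 2 states overlapped across libraries, and the difference appears within each library.

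Hist1h2bc, an H2B gene, behaved alike. Its cycling cells had 99.9 CPM in mutant A, 41.5 in WT A, 68.0 in mutant B and 249.8 in WT B. Its non-cycling cells had 142 CPM in mutant A, 106 in WT A, 117 in mutant B and 253 in WT B. The log2 difference was -0.61 ± 0.13 (edgeR adjusted p = 0.00157), lower in 4 of 4 libraries, although in WT B by only -0.02.

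Hist2h2be, another H2B gene, was higher in cycling cells, with 30.5 CPM in mutant A, 22.0 in WT A, 41.4 in mutant B and 46.8 in WT B. Non-cycling cells had 15.3 CPM in mutant A, 11.2 in WT A, 29.1 in mutant B and 44.3 in WT B. The difference of 0.56 ± 0.18 passed the test (edgeR adjusted p = 0.0264), but not with mutant A (adjusted p = 0.0759), WT A (0.15) or mutant B (0.0775) left out, nor with DESeq2 (0.128). Hist3h2a (0.46 ± 0.18), Hist1h4i (0.16 ± 0.21), Hist4h4 (0.05 ± 0.27), Hist3h2ba (-0.01 ± 0.21) and Hist1h2be (-0.48 ± 0.30) did not pass it. Hist1h4i and Hist4h4 both encode the core histone H4.

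**Figure D2:**
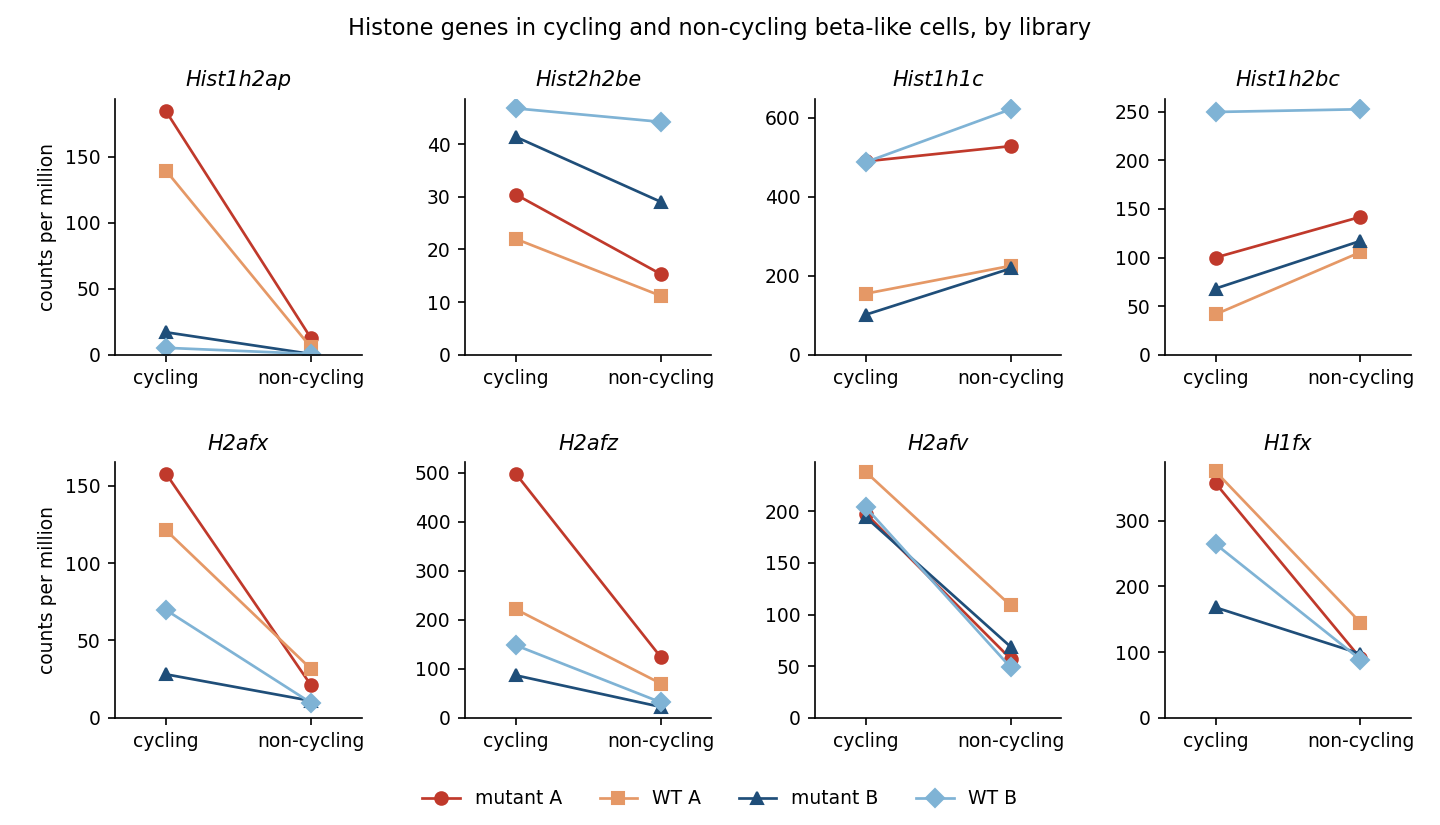
CPM of 8 histone genes in cycling (left) and non-cycling (right) beta-like cells, with 1 point per library and a line joining the states of a library; axes are linear and start at 0. Hist1h2ap rises in all 4 libraries but reaches 185 and 139.6 CPM only in mutant A and WT A, whereas Hist1h1c and Hist1h2bc are lower in the cycling cells of each library.

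Among the replacement genes, 7 of the 10 tested rose in cycling beta-like cells and none fell. H2afx, whose product is phosphorylated around DNA breaks and whose transcript shares the stem-loop, stood at 158 CPM in mutant A, 121 in WT A, 28.1 in mutant B and 69.7 in WT B in cycling cells. Non-cycling cells had 21.2 CPM in mutant A, 31.6 in WT A, 11.0 in mutant B and 9.70 in WT B. The log2 difference was 2.27 ± 0.18 (edgeR adjusted p = 3.3e-10).

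H2afz and H2afv encode the 2 forms of the variant H2A.Z, which sits at promoters. H2afz had 498 CPM in mutant A, 221 in WT A, 86.5 in mutant B and 148 in WT B in cycling cells, against 124 in mutant A, 69.8 in WT A, 22.2 in mutant B and 31.5 in WT B in non-cycling cells. It rose by 1.91 ± 0.10 on the log2 scale (edgeR adjusted p = 1.21e-13). H2afv had 198 CPM in mutant A, 238 in WT A, 194 in mutant B and 204 in WT B in cycling cells, against 57.2 in mutant A, 109 in WT A, 68.8 in mutant B and 48.8 in WT B in non-cycling cells. It rose by 1.56 ± 0.11 (edgeR adjusted p = 6.16e-11). The linker histone gene H1fx had 357 CPM in mutant A, 375 in WT A, 168 in mutant B and 264 in WT B in cycling cells, against 90.5 in mutant A, 145 in WT A, 97.3 in mutant B and 88.5 in WT B in non-cycling cells, a rise of 1.42 ± 0.11 (edgeR adjusted p = 4.6e-10).

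Smaller rises passed the same test in H1f0 (0.47 ± 0.08), a linker histone gene known for its expression in resting and differentiated cells, in H3f3b (0.43 ± 0.07) and in H2afy (0.36 ± 0.07), which encodes a macroH2A. Each was higher in cycling cells in 4 of 4 libraries. The call of H2afy ended with no filter on low counts (log2 difference 0.17, edgeR adjusted p = 0.199). H3f3a, which encodes the same H3 variant as H3f3b, differed by -0.02 ± 0.06 and was higher in cycling cells in 2 of 4 libraries. It stood at 1092 CPM in mutant A, 1868 in WT A, 938 in mutant B and 808 in WT B in cycling cells. Non-cycling cells had 1009.8 CPM in mutant A, 1778 in WT A, 999.9 in mutant B and 853 in WT B. H2afj (0.03 ± 0.15) and H2afy2 (0.36 ± 0.14), the second macroH2A gene, did not pass the test.

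Genes that process histone mRNA or escort histones to DNA were taken as a list of 43. Of these, all 43 were tested in beta-like cells, 19 rose in cycling cells and none fell, with a median log2 difference of 0.35. Of all 12035 genes tested, 10.9% were called higher and 8.45% lower. The cells were chosen by counts on proliferation markers, and how far these rises follow from that choice was not tested. The lowest p-values were those of Cenpa, the centromeric H3 variant, at 4.63 ± 0.16 (edgeR adjusted p = 2.52e-17), and of Asf1b, a chaperone of newly made H3 and H4, at 4.38 ± 0.21 (edgeR adjusted p = 2.22e-14). Chaf1a (2.62) and Chaf1b (1.99), subunits of the assembly factor that acts behind the replication fork, and Hat1 (1.79), which acetylates new H4, also rose. Slbp rose by 1.38 ± 0.11 (edgeR adjusted p = 4.49e-10), and Npat, an activator of replication-dependent histone genes, by 0.59. Hjurp, the chaperone of Cenpa, rose by 2.78 and Nasp, an H1 and H3 chaperone, by 1.17. Among listed genes with lower values, Zcchc11 (-0.28 ± 0.13) and Cpsf3 (-0.34 ± 0.22) had the lowest p-values and did not pass the test.

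In alpha-like cells, where only 16, 13, 54 and 46 cells of mutant A, WT A, mutant B and WT B were cycling, H2afx, H2afv, H2afz, H1fx, H1f0 and H3f3b rose and Hist1h1c and Hist1h2bc fell. These 8 were called among 16 members tested, where 8.35% of 6312 genes were called by edgeR, 6.1% higher and 2.25% lower. H2afx had 302 CPM in mutant A, 209 in WT A, 48.7 in mutant B and 67.0 in WT B in cycling cells, against 26.8 in mutant A, 30.9 in WT A, 12.1 in mutant B and 7.35 in WT B in non-cycling cells. Its log2 difference was 2.81 ± 0.30 (edgeR adjusted p = 1.83e-08). H2afx passed the filter on low counts here only with its cycling sums, where it is high, so this rise is a description. Hist1h1c had 407 CPM in mutant A, 241 in WT A, 103 in mutant B and 204 in WT B in cycling cells, against 480.5 in mutant A, 278 in WT A, 233 in mutant B and 317 in WT B in non-cycling cells. It fell by 0.63 on the log2 scale, with an SE of 0.16 (edgeR adjusted p = 0.0104).

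Hist1h1c and Hist1h2bc (-0.83 ± 0.22) were lower in cycling alpha-like cells in 4 of 4 libraries, with log2 ratios between -1.18 and -0.21 for Hist1h1c and between -1.27 and -0.23 for Hist1h2bc. Their calls ended without mutant B, where the differences were -0.44 for Hist1h1c (edgeR adjusted p = 0.192) and -0.78 for Hist1h2bc (0.118). They also ended without WT B, at -0.58 (edgeR adjusted p = 0.135) and -0.57 (0.323), and with DESeq2, at -0.64 (adjusted p = 0.0727) and -0.81 (0.139). H1f0 likewise passed no longer without WT B (edgeR adjusted p = 0.0889). Hist1h2ap did not pass the filter in alpha-like cells. It had 29 cycling and 5 non-cycling counts in mutant A, 16 and 12 in WT A, 3 and 0 in mutant B, and 1 and 1 in WT B. Of the processing and chaperone list 11 of 30 tested genes rose and none fell, where 6.1% of 6312 genes were called higher and 2.25% lower.

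Over all kept cells, 8 of 21 members tested rose and 2 fell, where 9.61% of 15270 genes were called higher and 7.09% lower by edgeR. This sum includes the beta-like and alpha-like cells above. Hist1h2ap differed by 4.37 ± 0.16 (edgeR adjusted p = 4e-09), Hist1h1c by -0.52 ± 0.09 and Hist1h2bc by -0.69 ± 0.13. Here too Hist1h2ap passed the filter on low counts only with its cycling sums, so its rise is a description. Hist1h1b, a linker histone gene, differed by 1.31 ± 0.47 and did not pass the test, and neither did Hist2h3c2, an H3 gene, at -0.74 ± 0.32. Hist1h3d, another H3 gene, passed the filter on low counts in none of the comparisons. It had 5, 8, 3 and 4 counts in cycling cells of mutant A, WT A, mutant B and WT B, against 53, 17, 8 and 7 in non-cycling cells, with log2 ratios of the CPM of -1.42, 0.84, 0.15 and 0.96 in that order of libraries. The rise of H2afy (0.25 ± 0.06) ended without mutant A (edgeR adjusted p = 0.0557) and without WT A (0.0592).

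**Figure D3:**
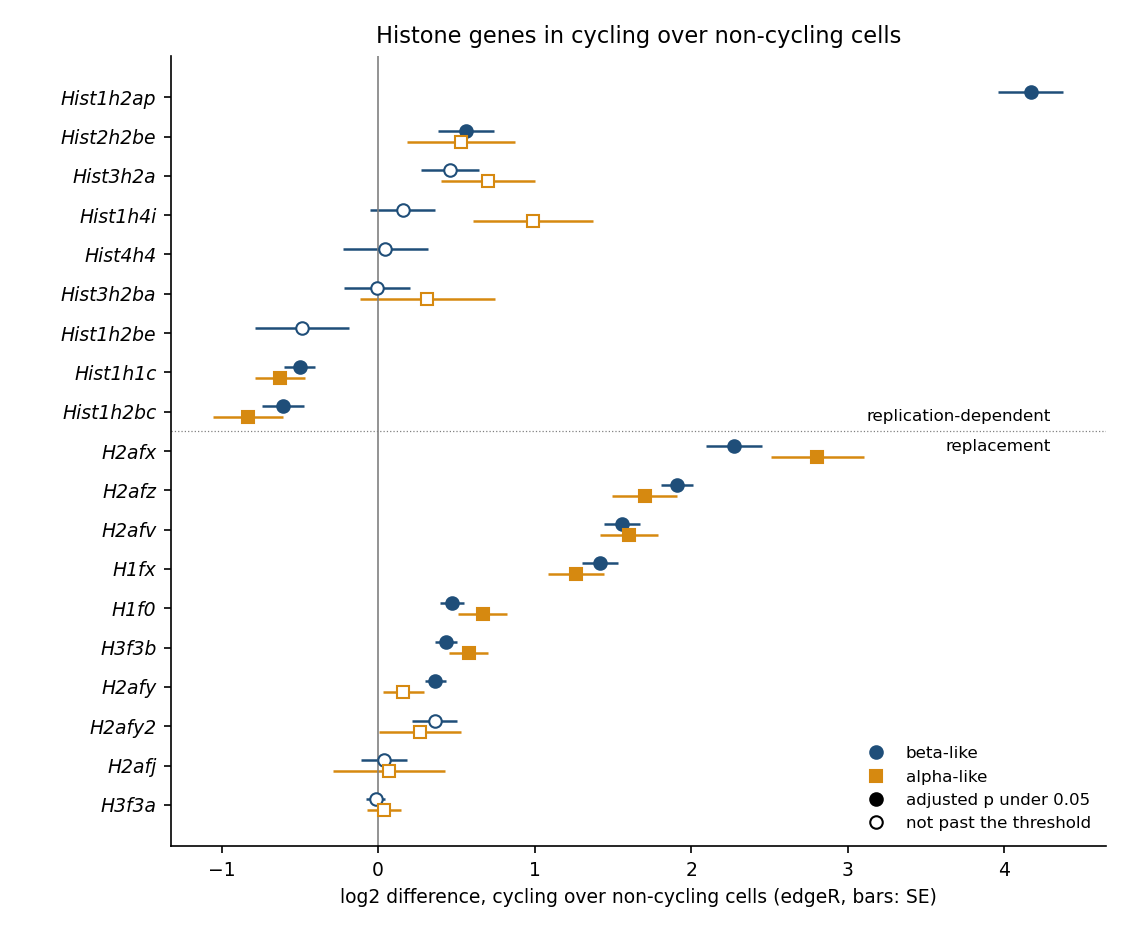
Log2 differences of histone genes in cycling over non-cycling cells from edgeR, with bars of 1 SE, in beta-like (blue circles) and alpha-like cells (orange squares); filled points passed an adjusted p of 0.05 and the dotted line separates replication-dependent genes (above) from replacement genes (below). Hist1h2ap lies at 4.17 in beta-like cells, Hist1h1c and Hist1h2bc lie left of 0 in both classes, and H2afx, H2afz, H2afv and H1fx lie right of 1 in both.

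Cycling beta-like cells were then split by whether S-phase markers or G2 and M markers held more of their thinned counts. The S side held 37, 48, 62 and 42 cells of mutant A, WT A, mutant B and WT B, and the G2M side 37, 45, 82 and 57. Hist1h2ap rose on the S side and H1fx and H2afv fell, 1 member higher and 2 lower of 16 tested, where 3.55% of 6836 genes were called by edgeR, 1.2% higher and 2.36% lower. Hist1h2ap stood at 244 CPM in mutant A, 189 in WT A, 28.1 in mutant B and 12.4 in WT B on the S side, against 101 in mutant A, 104 in WT A, 6.36 in mutant B and 0 in WT B on the G2M side. Its log2 difference was 1.23 ± 0.24 (edgeR adjusted p = 0.00554), with the S side higher in 4 of 4 libraries. In WT B it rested on 5 counts against 0.

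H1fx had 258 CPM in mutant A, 319 in WT A, 154 in mutant B and 164 in WT B on the S side, against 424 in mutant A, 436 in WT A, 183 in mutant B and 347 in WT B on the G2M side. Its log2 difference was -0.60 ± 0.14 (edgeR adjusted p = 0.0145). H2afv differed by -0.58 ± 0.15 (edgeR adjusted p = 0.0318), and both genes were lower on the S side in 4 of 4 libraries. H2afx (-0.71 ± 0.24), H2afz (-0.34 ± 0.13), Hist1h1c (-0.41 ± 0.16) and Hist1h2bc (-0.72 ± 0.23) did not pass the test.

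Slbp rose on the S side in 4 of 4 libraries, with 99.2 CPM in mutant A, 150.2 in WT A, 206 in mutant B and 233 in WT B, against 77.8 in mutant A, 51.1 in WT A, 90.7 in mutant B and 49.6 in WT B on the G2M side. Its difference of 1.36 ± 0.21 (edgeR adjusted p = 0.00062) was the 1 rise in the processing and chaperone list, of 35 tested, while Cenpa (-2.39) and Anp32e (-0.62), a chaperone that removes H2A.Z, fell. No member passed the test without mutant A, where Hist1h2ap reached an adjusted p of 0.0622, H1fx 0.0581 and H2afv 0.121. Without WT B only Hist1h2ap passed, H1fx reaching 0.149 and H2afv 0.235, and without mutant B H2afv reached 0.111. Without WT A 5 members passed.

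**Figure D4:**
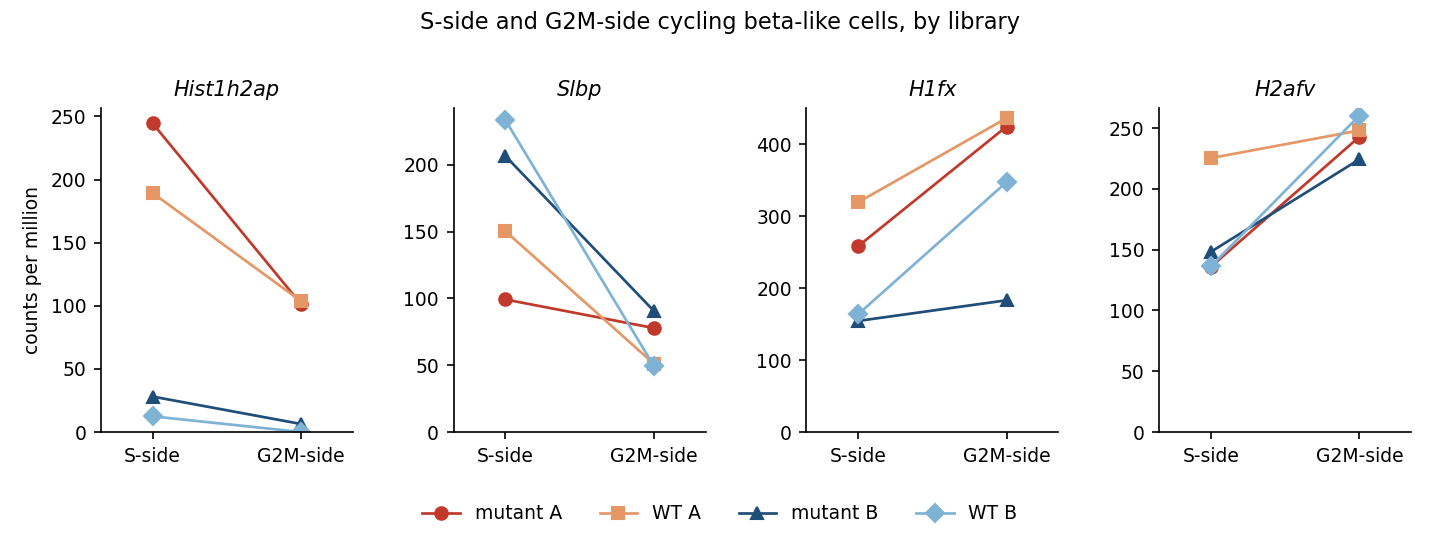
CPM of Hist1h2ap, Slbp, H1fx and H2afv in S-side (left) and G2M-side (right) cycling beta-like cells, with 1 point per library and a line joining the sides of a library; axes are linear and start at 0. Hist1h2ap and Slbp are higher on the S side in each of the 4 libraries, while H1fx and H2afv are lower there.

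In beta-like cells the replication-dependent sum was higher in cycling than in non-cycling cells in both A libraries and lower in both B libraries. The difference in WT A was small, with a log2 ratio of 0.04. In cycling beta-like cells the sum was 1016.4 CPM in mutant A, 431 in WT A, 309.8 in mutant B and 1016.7 in WT B. In non-cycling beta-like cells it was 857 CPM in mutant A, 418 in WT A, 437 in mutant B and 1106 in WT B. The log2 ratios were 0.25 in mutant A, 0.04 in WT A, -0.50 in mutant B and -0.12 in WT B, a description of the members with no test. Without Hist1h2ap they were -0.02 in mutant A, -0.50 in WT A, -0.58 in mutant B and -0.13 in WT B, all below 0. Without Hist1h1c they were 0.68 in mutant A, 0.52 in WT A, -0.07 in mutant B and 0.13 in WT B.

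The replacement sum was higher in cycling beta-like cells of each library, with log2 ratios of 0.72 in mutant A, 0.44 in WT A, 0.24 in mutant B and 0.42 in WT B. Replication-dependent genes thus held 18.2% of all histone counts in cycling beta-like cells of mutant A, 8.55% in WT A, 9.03% in mutant B and 20.9% in WT B. In non-cycling beta-like cells they held 23.6% in mutant A, 11.0% in WT A, 14.2% in mutant B and 27.8% in WT B. Their share was lower in the cycling cells of all 4 libraries.

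The replication-dependent sum was higher in cycling cells of the mesenchymal-like and endothelial-like classes in the 3 libraries with at least 10 such cells. In mesenchymal-like cells the log2 ratio was 1.40 in WT A, 0.72 in mutant B and 0.63 in WT B, on 46, 59 and 27 counts in cycling cells. In endothelial-like cells it was 1.22 in WT A, 0.67 in mutant B and 1.01 in WT B, on 26, 13 and 46 counts. Mutant A had too few cycling cells of either class. Without Hist1h2ap the value of WT A turned to -0.78 in the mesenchymal-like class and -0.16 in the endothelial-like one.

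Non-cycling cells of the classes were compared with non-cycling beta-like cells in 1 fit, with the library as a block. Mesenchymal-like and endothelial-like cells had less Hist1h1c and Hist1h2bc, the 2 most counted replication-dependent genes. The differences were smaller in mutant A, where Hist1h2bc was not lower in mesenchymal-like cells. Alpha-like and delta-like cells differed from beta-like cells in 1 replacement gene each. The replication-dependent sum in non-cycling cells was 510.1 CPM in mutant A, 134 in WT A, 116 in mutant B and 149 in WT B in mesenchymal-like cells. In endothelial-like cells it was 357 CPM in mutant A, 134 in WT A, 99.6 in mutant B and 118 in WT B. It ranged from 418 to 1106 CPM in beta-like, 513 to 777 in alpha-like, 461 to 946 in delta-like and 626 to 1069.9 in pp-like cells. The replacement sums overlapped between all these classes, from 2562 CPM in an alpha-like to 4426 in an endothelial-like sum.

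**Figure D5:**
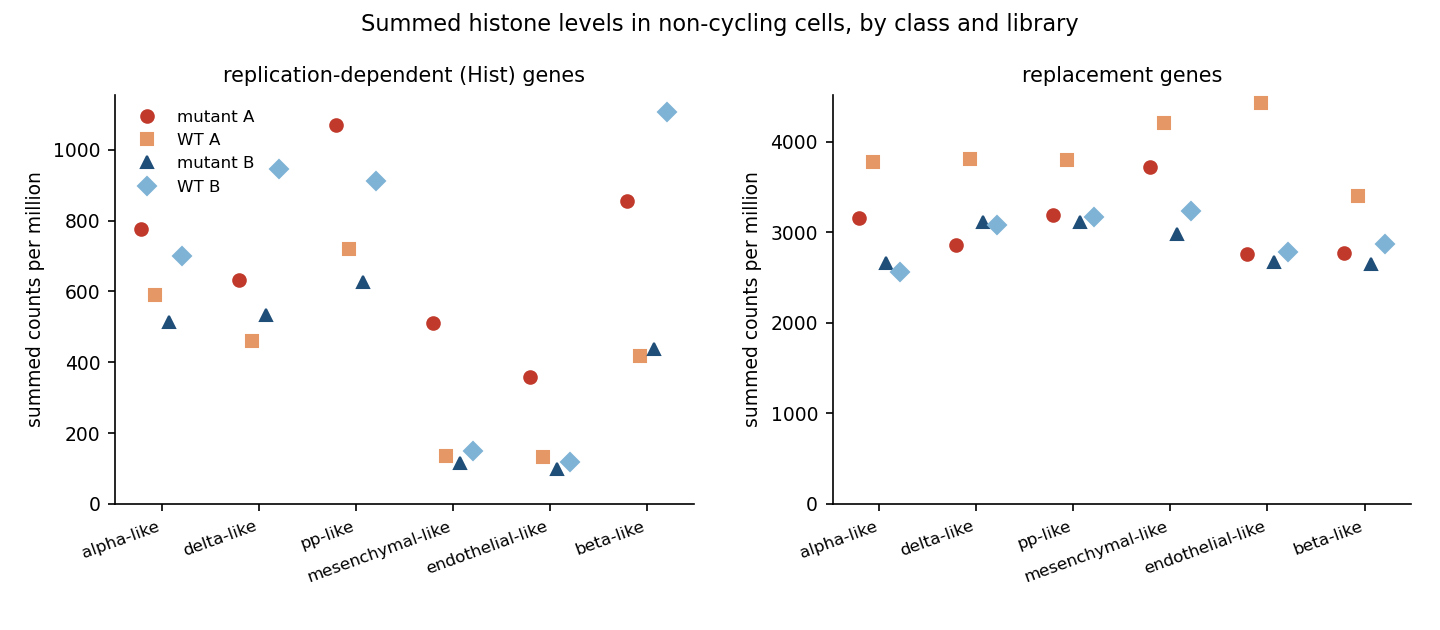
Summed CPM of replication-dependent (left panel) and replacement histone genes (right panel) in non-cycling cells of 6 classes, with 1 point per library and axes that start at 0. Replication-dependent sums in mesenchymal-like and endothelial-like cells lie at or under 149 CPM except in mutant A (510.1 and 357 CPM), while replacement sums of the classes overlap.

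In mesenchymal-like cells 10 of 16 members tested were called, 3 higher and 7 lower, but 25.5% of 9118 genes were called higher and 25.1% lower by edgeR. Hist1h1c had 223 CPM in mutant A, 48.0 in WT A, 35.5 in mutant B and 43.8 in WT B in mesenchymal-like cells, against 529 in mutant A, 225 in WT A, 219 in mutant B and 622 in WT B in beta-like cells. The log2 difference was -2.41 ± 0.35 (edgeR adjusted p = 2.82e-06). Hist1h2bc had 144 CPM in mutant A, 19.2 in WT A, 20.6 in mutant B and 43.8 in WT B in mesenchymal-like cells, a difference of -1.65 ± 0.36 from beta-like cells (edgeR adjusted p = 0.000424). In mutant A it was not lower, since beta-like cells there had 142 CPM. Hist1h2bc passed the filter on low counts through other classes, so its lower value is a description. Hist3h2ba, an H2B gene, had 1, 0, 1 and 0 counts in mesenchymal-like cells of mutant A, WT A, mutant B and WT B, against 165, 35, 27 and 90 in beta-like cells. Hist1h4i had 2, 1, 4 and 0 counts, against 127, 101, 47 and 128. Both are among the 7 called lower, but with so few counts they passed the filter on low counts through the classes where they are high, which fixes their direction, so their counts are a description. Hist3h2a, the third most counted, which lies within Trim17, differed by 0.25 ± 0.32 and did not pass the test.

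Of the replacement genes H1fx (-0.93 ± 0.19) and H2afj (-1.65 ± 0.35) were lower in mesenchymal-like cells under each library left out. H2afj passed the filter on low counts through other classes, so its lower value is a description. H2afv (0.63 ± 0.20), H2afy2 (0.90 ± 0.26) and H3f3b (0.60 ± 0.19) were higher, and Hist2h2be (-1.58 ± 0.61) lower, in the full fit. Each of these 4 calls ended when 1 library was left out. H2afv reached an adjusted p of 0.0519 without mutant A and 0.0846 without WT B, H2afy2 0.0787 without WT A and 0.138 without mutant B. H3f3b reached 0.191 without WT A and 0.0962 without mutant B, and Hist2h2be 0.0783 without WT A, 0.316 without mutant B and 0.335 without WT B. Hist2h2be also passed the filter through other classes, so its lower value is a description.

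Endothelial-like cells had 1 member called higher and 8 lower, where 50.2% of genes were called by edgeR, 24.5% higher and 25.6% lower. Hist1h1c had 224 CPM in mutant A, 23.2 in WT A, 34.2 in mutant B and 13.6 in WT B, a difference of -2.66 ± 0.38 from beta-like cells (edgeR adjusted p = 2.27e-06). Hist1h2bc differed by -2.10 ± 0.42 (edgeR adjusted p = 0.000151), H1fx by -1.17 ± 0.22 and H2afj by -1.40 ± 0.38. Hist1h4i had 0, 2, 0 and 0 counts and Hist3h2ba 1, 0, 0 and 0 counts in mutant A, WT A, mutant B and WT B. These 2 are among the 8 called lower and entered the test in the same way, so their direction too was fixed by the filter. H2afj held 3, 5, 4 and 3 counts and H2afy2 5, 1, 13 and 4 counts in the same order of libraries. Both also passed the filter through other classes, so their lower values are a description. Hist1h1c held 52, 4, 11 and 3 counts and Hist1h2bc 20, 5, 5 and 6, again in that order of libraries. These 2 likewise passed the filter through other classes, and their lower values are a description. Hist3h2a differed by 0.12 ± 0.36 and did not pass the test. H2afv (0.53), H2afy (-0.52) and H2afy2 (-0.95) passed in the full fit. H2afv passed no longer without mutant A, mutant B or WT B (edgeR adjusted p = 0.236, 0.0937 and 0.185), and H2afy not without WT A or mutant B (0.0962 and 0.0584). H2afy2 passed no longer without mutant A, WT A or WT B (0.0942, 0.0949 and 0.235).

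Mutant A stood apart in both classes, and so did its insulin counts and, for mesenchymal-like cells, its clusters. Clusters 9, 10 and 16 held 60, 7 and 0 mesenchymal-like cells of mutant A, against 45, 40 and 33 of WT A, 138, 187 and 127 of mutant B and 73, 81 and 11 of WT B. Insulin transcripts made up 9.76% of non-cycling mesenchymal-like counts in mutant A, against 0.756% in WT A, 0.087% in mutant B and 0.246% in WT B. In endothelial-like cells they made up 8.36% in mutant A, against 0.19% in WT A, 0.0367% in mutant B and 0.108% in WT B. The part of insulin and of the clusters in the histone levels was not tested. Without mutant A the difference of Hist1h1c was -2.95 ± 0.28 in mesenchymal-like cells and -3.77 ± 0.35 in the endothelial-like class, and that of Hist1h2bc -2.51 ± 0.26 and -2.86 ± 0.32.

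Alpha-like cells differed from beta-like cells in H1f0, which was lower by -0.46 ± 0.16 (edgeR adjusted p = 0.0411), 1 of 16 members where 21.8% of 9118 genes were called, 10.3% higher and 11.6% lower. It had 138 CPM in mutant A, 169 in WT A, 163 in mutant B and 177 in WT B in alpha-like cells, against 168 in mutant A, 213 in WT A, 212 in mutant B and 275 in WT B in beta-like cells. The call ended without WT A, mutant B or WT B (edgeR adjusted p = 0.108, 0.0994 and 0.154). Delta-like cells differed in H2afz, with 71.8 CPM in mutant A, 49.1 in WT A, 13.4 in mutant B and 17.5 in WT B, a difference of -0.74 ± 0.22 (edgeR adjusted p = 0.0388) where 7.96% of genes were called, 4.43% higher and 3.53% lower. It passed with none of the 4 libraries left out (edgeR adjusted p between 0.102 and 0.163). Non-cycling delta-like sums also held insulin transcripts, at 13.9% of counts in mutant A and 8.33% in WT A, against 1.65% in mutant B and 0.118% in WT B. Their part in the histone levels was not tested. Hist1h1c differed by -0.26 ± 0.30 in alpha-like and -0.37 ± 0.30 in delta-like cells.

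Between genotypes no histone gene passed the test. In non-cycling beta-like cells 0 of 20 members and 0 of 14092 genes were called by edgeR (0%). At an unadjusted p under 0.05 there were 0 members, 13 genes higher and 2 lower, and DESeq2 called 0 genes, with 16 at an unadjusted p under 0.05. In cycling beta-like cells edgeR called 0 of 20 members and 0% of 10127 genes, where an unadjusted p under 0.05 was reached by 17 genes higher and 1 lower. In non-cycling mesenchymal-like cells it called 0 of 11 members and 0% of 6514 genes, with 26 higher and 11 lower unadjusted. DESeq2 called 0 genes in both, with 18 and 81 at an unadjusted p under 0.05. The difference between the genotypes in the effect of cycling on beta-like cells also gave 0 of 21 members and 0% of 13782 genes with edgeR (148 higher and 256 lower unadjusted), and 0 genes with DESeq2 (57 unadjusted). The errors were wide: Hist1h1c differed by -0.03 ± 0.66, Hist1h2bc by -0.33 ± 0.59 and H2afz by 0.61 ± 0.75 in non-cycling beta-like cells.

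The libraries of a label did not move together. In non-cycling beta-like cells the log2 ratio of Hist1h1c, libraries labelled mutant over WT, was 1.23 within A and -1.51 within B, and that of Hist3h2ba 2.57 within A and -1.88 within B. Of the 17 members with at least 20 counts in each library, 15 had ratios of opposite sign within A and within B, as did 69.4% of 9272 genes. H1f0 (-0.35 within A and -0.38 within B) and H2afy (-0.01 and -0.04) were lower in both, and no member was higher in both. H3f3a had -0.82 within A and 0.23 within B, and H3f3b 0.50 within A and -0.51 within B.

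Some members lay higher, or lower, in both A libraries than in both B libraries. The share of all genes that split in this way was not computed, so the split is not shown to be particular to histone genes. Over all kept cells Hist1h2ap held 440 counts (47.8 CPM) in mutant A and 430 (34.1) in WT A, against 47 (3.88) in mutant B and 27 (2.64) in WT B. Hist2h2aa1, which shares its 3′ end with Hist2h2aa2, held 29 counts in mutant A, 10 in WT A and none in mutant B or WT B. Hist1h4h held 44 in mutant A, 13 in WT A, 0 in mutant B and 6 in WT B. H2afz (185, 96.9, 35.5 and 52.2 CPM in mutant A, WT A, mutant B and WT B) and H2afx (47.4, 45.8, 16.4 and 18.7 CPM) were higher in both A libraries too. Hist2h2be went the other way, with 20.3 CPM in mutant A, 16.2 in WT A, 35.4 in mutant B and 38.6 in WT B. These genes were picked after their values had been seen, the meaning of the title number is not given, and it cannot be told apart from the libraries that carry it.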

How the data were processed

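Raw counts per gene and cell barcode were deposited by the authors for each of the 4 inDrop libraries. Builds GRCh38 and GRCm38 appear in the submitters' processing notes. The aligner, the counting and any use of molecular identifiers or strand were not stated. Library totals ranged from 9282495 to 12835199 counts. Kept cells had 500 or more counts, 250 or more genes and no more than 25% mitochondrial counts, after 40 doublets (0.609%) called by Scrublet in scanpy 1.11.5 were removed. Cells were clustered without the histone genes and the cell cycle markers (2000 variable genes, 30 principal components, Leiden resolution 1), and clusters were named from marker lists. Cycling cells had at least 2 proliferation marker counts after thinning to 2000 counts, the 749 cells with 1 and the 924 cells below 2000 counts being left out of state comparisons. Counts were summed per library, class and state and tested with edgeR 4.0.16 (quasi-likelihood F test, TMM scaling, filterByExpr, library as a block for comparisons within libraries, threshold 0.05 on Benjamini-Hochberg adjusted p). Genotypes were compared over 2 libraries each without a block. DESeq2 1.42.0, other scaling, filters, cell limits and leaving out each library were tried as alternatives. The SE of a log2 difference is its size over the square root of the F statistic. The scripts were tested on simulated data. CPM are a gene's counts per 1000000 counts of the sum, so each is a share of all RNA counted. The limit given for a count of 0 reflects counting error only. In the state comparisons, with the library as a block, the p-values and SE measure how a difference within a library varies over the 4 libraries. The class comparisons come from 1 fit, so theirs pool the variation within libraries over all classes in it. In the genotype comparisons without a block they measure the spread between libraries of a label.

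The members, lists and tests were chosen with earlier results of these data known. Named are the replacement genes and replication-dependent genes with at least 100 counts, the 2 genes of the processing and chaperone list with the smallest p per direction in beta-like cells, Sin3a, Mki67 and Top2a. Slbp, the other listed genes named with a value, Hist2h2aa1 and Hist1h4h fall outside that rule and were chosen after their values were seen. Transcripts, stem-loops, poly(A) signals and shared 31-base stretches were read from GENCODE M21 (GRCm38).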

Additional observations from a re-analysis of the deposited data

Results flagged for a closer look

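In beta-like, alpha-like and all kept cells the replication-dependent sum of cycling over non-cycling cells was above 0 on the log2 scale in both A libraries. It was below 0 in both B libraries. Other classes did not share this split. The mesenchymal-like, endothelial-like and ductal-like sums were higher in cycling cells of B libraries, and the delta-like sum was lower in WT A. In beta-like cells the log2 ratios were 0.247 in mutant A, 0.044 in WT A, -0.496 in mutant B and -0.121 in WT B. In alpha-like cells they were 0.634 in mutant A, 0.124 in WT A, -0.627 in mutant B and -0.405 in WT B. Over all kept cells they were 0.264 in mutant A, 0.059 in WT A, -0.442 in mutant B and -0.142 in WT B. These 3 sets share cells, and the difference between A and B was not tested. Without Hist1h2ap the ratios over all kept cells were -0.038 in mutant A, -0.511 in WT A, -0.515 in mutant B and -0.164 in WT B.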

How the results depend on the processing

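Of 53 called single-gene results under 530 alternatives, 434 kept their direction and side of the threshold, 96 kept the direction but passed no longer, and 0 turned round. Of the 53 calls, 18 held under all their alternatives, and each of the others was lost under at least 1. Members called without a replicate block for the library, an alternative chosen after seeing the data, were 2 in cycling beta-like cells, 3 in cycling alpha-like cells, 2 over all cells, 0 between S side and G2M side, 0 for alpha-like, 0 for delta-like, 6 for mesenchymal-like and 5 for endothelial-like against beta-like cells, and 8 of the processing and chaperone list. Between S side and G2M side DESeq2 called 1, no filter on low counts 5, and a minimum of 3 marker counts for cycling 1. In delta-like cells DESeq2 called 0 and no filter 2. Leaving out each library in turn gave 0 to 5 members called between S side and G2M side, 5 to 9 in alpha-like cycling cells, 0 to 1 in alpha-like and 0 to 2 in delta-like against beta-like cells, and 0 to 2 between genotypes in mesenchymal-like cells. The 2 came without mutant B, where mutant A is the lone mutant library and is assumed to vary like the WT libraries, and the share of all genes called there was not computed. The mean log2 ratio of the replication-dependent sum in beta-like cells was -0.082, ran between -0.191 and 0.057 with a library left out, and was 0.315 without Hist1h1c, also an added alternative. In the genotype comparison of non-cycling beta-like cells with a library left out H2afz ran between -1.169 and 1.325 (below 0 at -1.169 without mutant A and -0.03 without WT B), Hist1h1c between -0.852 and 0.652 (above 0 at 0.383 without mutant B and 0.652 without WT B) and Hist1h2bc between -0.826 and 0.235 (above 0 without WT B). With the title number as a replicate block 0 members were called in the 3 genotype comparisons. Same-numbered libraries deviated with a correlation of 0.082 over 9272 genes. The labels do not say what the numbers share, so the block was kept as an alternative only. The number nevertheless goes with clusters and with levels such as those of Hist1h2ap, and what it marks is not stated. The cause of these changes was not tested. The median replication-dependent gene had 6 counts in all, against 2100 for the replacement genes, so most of the replication-dependent genes could not be tested.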

Other observations

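In ductal-like cells the replication-dependent sum was also higher in cycling cells, with a log2 ratio over non-cycling cells of 0.90 in mutant B and 0.29 in WT B. In delta-like cells it was lower, at -0.27 in WT A and -0.65 in mutant B. These are values of single libraries with no test.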
